A study of Mus musculus with 15 samples.

Results

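The clustered histone genes of mouse embryonic stem cells (mESCs) were followed across 5 conditions of cohesin STAG depletion. They were taken as every gene whose symbol begins with Hist1h, Hist2h, Hist3h or Hist4h, which gave 68 of the 23412 genes counted: 6 genes of linker histone H1, 18 of H2A, 19 of H2B, 12 of H3 and 13 of H4. The counts come from 15 libraries of polyadenylated RNA from the male mESC line v6.5, with 3 replicates per condition. The conditions were wild-type siGLO, wild-type siStag1, *Stag1*-/- siGLO, *Stag2*-/- siGLO and *Stag2*-/- siStag1, where siGLO is the transfection control, siStag1 is an siRNA against *Stag1*, both at 50 nM, and RNA was taken after 48 h. All cells, controls included, were transfected and grown on gelatin. Each knockout genotype is a single CRISPR clone whose cells gave all 3 replicates, so a clone and its genotype cannot be told apart, and p-values measure only the spread between these samples. The study compared these conditions to ask how far STAG1 and STAG2, the alternative subunits of the cohesin ring, act alike in gene expression.

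Histones are the proteins around which DNA is wound: H2A, H2B, H3 and H4 form the nucleosome core and H1 binds the linker DNA. Most genes in the histone clusters are replication-dependent, that is, transcribed in S phase when new chromatin is built, and embryonic stem cells divide fast. Their main mRNAs are the only known animal mRNAs without a poly(A) tail. They end just after a conserved stem-loop that is bound by SLBP and cut with the help of the U7 small nuclear ribonucleoprotein. Replacement histones such as H3.3 and H2A.Z are instead encoded by single genes outside the clusters, with ordinary poly(A) tails. Because the libraries were selected for poly(A), the values below describe polyadenylated histone transcripts and any carry-over, not total histone mRNA.

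The histone 3′ stem-loop consensus was found in the annotated transcripts of 46 of the 68 genes (67.6%), against 0.242% of all 55341 genes in GENCODE M21. In 24 of the 68 genes an annotated transcript continued more than 60 bases past the stem-loop, in 22 the transcripts ended within 60 bases of it, 11 were annotated by their coding part alone, and 11 had other transcripts without it. Of the 11 genes called in any comparison below, 9 had the stem-loop. It is shown for these 9, as DNA letters on the gene's strand, 5′ to 3′, with the stem-loop in capitals and 5 flanking bases on each side, because it is the part of the mRNA that marks the tail-less form.
*Hist1h2bk*: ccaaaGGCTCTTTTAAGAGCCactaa
*Hist1h2be*: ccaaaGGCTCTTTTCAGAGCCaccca
*Hist1h2bp*: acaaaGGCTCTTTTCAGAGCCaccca
*Hist3h2ba*: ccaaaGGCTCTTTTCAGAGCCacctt
*Hist1h3c*: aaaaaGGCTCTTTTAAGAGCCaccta
*Hist2h3c1*: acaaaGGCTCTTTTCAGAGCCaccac
*Hist1h4a*: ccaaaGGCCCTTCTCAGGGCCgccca
*Hist1h4b*: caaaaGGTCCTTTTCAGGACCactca
*Hist1h4i*: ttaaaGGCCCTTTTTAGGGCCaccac
The most frequent form, seen in 26 genes of H1, H2A, H2B and H3, is that of *Hist1h2be*. The H4 genes carried other stems: GGCCC at the 5′ side in *Hist1h4a* and *Hist1h4i* and GGTCC in *Hist1h4b*. The remaining 2 called genes, *Hist1h2ah* and *Hist1h2bc*, had no stem-loop in their annotated transcripts. The annotated exon of *Hist1h2ah* has 405 bases, 384 of them coding, so a stem-loop past its annotated end would be missed. *Hist1h2bc* is annotated with 2 exons on chromosome 13 from 23684199 to 23692908 (mm10), so its annotated transcript is spliced, unlike most genes of the clusters.

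The genes lie in few places. On mm10, 23 lie on chromosome 13 between 21715763 and 22043676 and 31 between 23531050 and 23934851, 10 lie on chromosome 3 between 96219865 and 96270132, 3 on chromosome 11 and 1 on chromosome 6. Many are near copies of each other. In 20 of the 68 genes more than 50% of the 150-base stretches of the annotated transcripts, the length of a read, also occurred in transcripts of another gene, and reads placed at several sites were kept out of the gene counts. Of the 6 genes without a count in any library, *Hist1h2ao*, *Hist1h2ap*, *Hist1h2bq*, *Hist1h2br* and *Hist2h2aa1* shared between 84.2% and 95.4% of these stretches, while *Hist2h2ab* shared none.

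Clustered histone transcripts were rare in these libraries. Between 675 and 1217 reads per library fell on all 68 genes together (median 928), out of 14982560 to 19070126 counts on genes, which is 37.3 to 64.0 CPM (a gene's count relative to its library total). The floor used here, 3 counts in a library, corresponds to 0.157 to 0.200 CPM and covers counting error only. In the following, levels are normalized counts, that is, counts set to a common depth with TMM factors. The mean level was 6.14 normalized counts for the median histone gene. An expression filter kept 35 of the 68 genes for testing, which held 89.8% of the summed level, and 33 were not tested. The median level of the 35 was 13.5 normalized counts, against 385 for all 14508 genes tested.

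**Figure D1:**
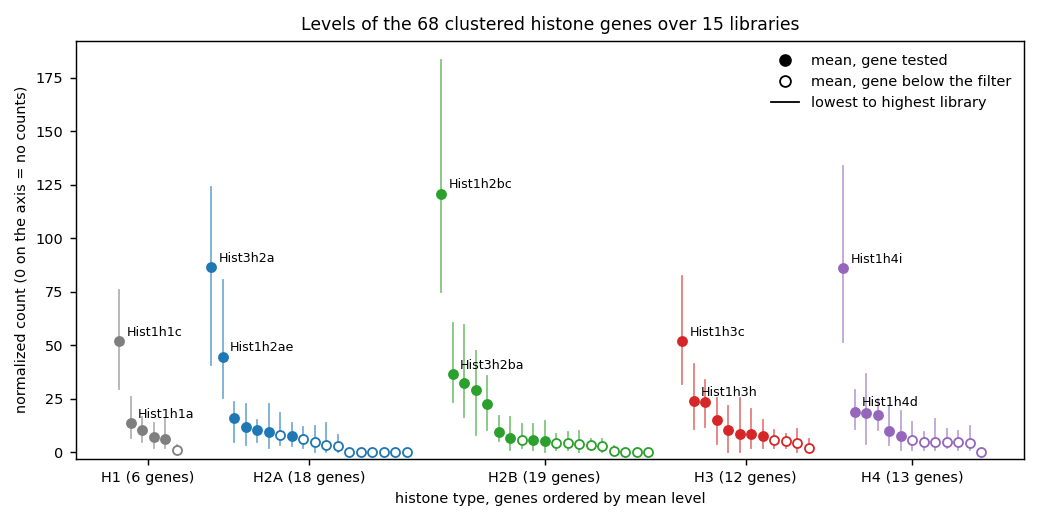
Mean normalized count (y axis) of each of the 68 clustered histone genes over the 15 libraries, ordered by level within histone type (x axis), with a line from the lowest to the highest library. Filled points are the 35 genes tested and open points the 33 below the filter. A few genes stand far above the rest of their type, with *Hist1h2bc* highest at 121 normalized counts.

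A few genes in each histone type carried most of the reads. The 4 highest, *Hist1h2bc*, *Hist3h2a*, *Hist1h4i* and *Hist1h1c*, held 36.4% of the summed level. Per kilobase of annotated exon, the level was highest for *Hist1h4i* (118 normalized counts per kb), followed by *Hist1h2bc* (104), *Hist1h3c* (82.4), *Hist1h2bk* (67.5) and *Hist1h2ae* (63.3). For comparison on the same per-kb scale, the replacement histone genes *H2afz*, which encodes H2A.Z, and *H3f3b*, which encodes H3.3, had 7668 and 3492 normalized counts per kb. The 11 tested replacement histone genes together had 40145 to 55274 normalized counts per library, against 657 to 1138 for the 68 clustered genes. *H2afx*, whose mRNA is known to be made both with a stem-loop end and with a poly(A) tail, had 5200 normalized counts per kb.

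Summed by histone type, the *Stag1*-/- libraries lay below wild-type siGLO in H2B and H4. The H2B sum was 219, 207 and 249 normalized counts in replicates 1, 2 and 3 of *Stag1*-/- siGLO, against 379, 296 and 320 in wild-type siGLO. The H4 sum was 141, 119 and 138 in *Stag1*-/- siGLO, against 216, 166 and 173 in wild-type siGLO. In both types no *Stag1*-/- library reached any wild-type siGLO library. Without *Hist1h2bc*, a choice made after seeing the data, the H2B sums were 121 to 163 in *Stag1*-/- siGLO and 149 to 195 in wild-type siGLO. Without *Hist1h4i*, the H4 sums were 67.2 to 84.6 and 84.2 to 103. The ranges then overlapped, in H4 through 1 library of each condition (84.6 in *Stag1*-/- replicate 1 and 84.2 in wild-type replicate 3). In *Stag2*-/- siGLO the H2B sum was 307 to 317 and the H4 sum 194 to 229, both overlapping wild-type siGLO. For H1, H2A and H3 the *Stag1*-/- libraries overlapped wild-type siGLO, with sums of 63.3 to 89.6, 128 to 207 and 125 to 206, against 85.2 to 107, 174 to 266 and 148 to 170. The sum over all 68 genes was 763 ± 113 normalized counts in *Stag1*-/- siGLO, 996 ± 122 in wild-type siGLO, 949 ± 84.8 in wild-type siStag1, 1000 ± 39.6 in *Stag2*-/- siGLO and 1028 ± 110 in *Stag2*-/- siStag1 (SD, n = 3 each). No test was run on these sums.

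**Figure D2:**
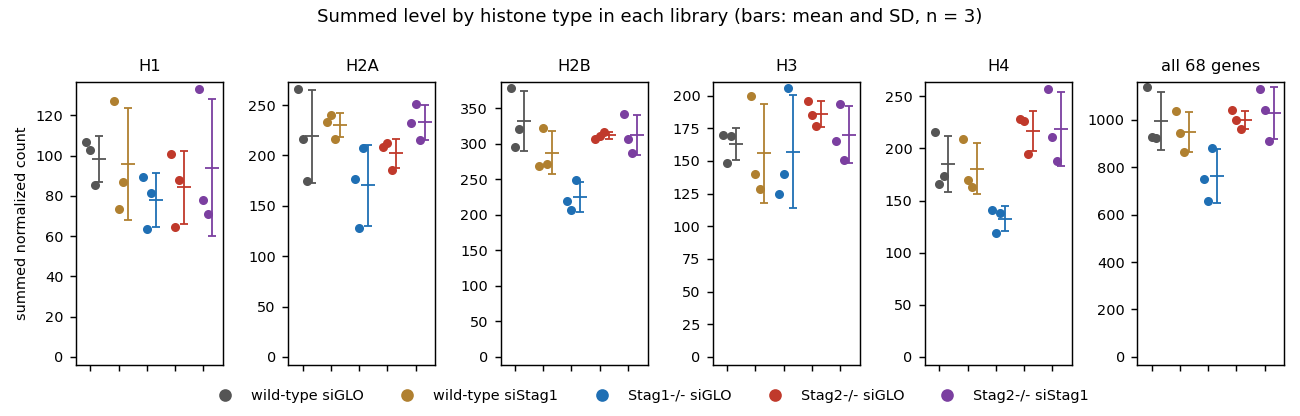
Summed normalized count (y axis) of the genes of each histone type in each library, for the 5 conditions (x axis, coloured), with the mean and SD (n = 3) beside the points. The 3 *Stag1*-/- siGLO libraries lie below all wild-type siGLO libraries in H2B and H4.

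In *Stag1*-/- siGLO cells, 7 of the 35 tested histone genes fell and none rose relative to wild-type siGLO (edgeR's quasi-likelihood test, Benjamini-Hochberg adjusted over all genes, p under 0.1). Of all 14508 genes tested, 20.0% were called, 9.93% fell and 10.1% rose. The 7 genes were 1 of 7 tested H2A genes, 3 of 9 H2B, 1 of 8 H3 and 2 of 6 H4, with none of the 5 H1 genes. The median log2 fold change was -0.17 over the 35 genes, with 27 below 0, against -0.013 over all genes, of which 7524 of 14508 were below 0. By type it was -0.30 for H1, -0.32 for H2A, -0.28 for H2B, -0.073 for H3 and -0.29 for H4. Only 1 of the 7 calls remained without replicate 1 of wild-type siGLO, the library with the highest histone sum. Of the 7 calls, 4 remained without wild-type replicate 2, 6 without wild-type replicate 3, and 3, 4 and 5 without *Stag1*-/- replicate 1, 2 and 3. With the replicate number as a block, which pairs these libraries, 8 of the 35 histone genes fell (22.9%), where 30.6% of all genes were called.

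The most abundant histone genes that fell in *Stag1*-/- cells were *Hist1h2bc* and *Hist1h4i*. *Hist1h2bc* had 88.6, 86.6 and 85.9 normalized counts in *Stag1*-/- siGLO, against 183, 146 and 139 in wild-type siGLO. Its log2 fold change was -0.84 (SE 0.25, edgeR adjusted p = 0.0323), and adjusted p = 0.121 without wild-type replicate 1. The *Stag1*-/- libraries lay close together and below every wild-type siGLO library. *Hist1h4i*, an H4 gene on chromosome 13 from 22040636 to 22041362, had 56.1, 51.6 and 57.0 normalized counts, against 113, 80.3 and 89.0. It fell by 0.78 on the log2 scale (SE 0.23, edgeR adjusted p = 0.0361), and adjusted p = 0.145 without wild-type replicate 1. Again the groups did not overlap.

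The other 5 genes had low counts. *Hist1h2bp*, an H2B gene annotated with 2 exons, had 3.94, 0.973 and 0.904 normalized counts in *Stag1*-/- siGLO and 7.48, 16.3 and 9.68 in wild-type siGLO. It fell by 2.46 on the log2 scale (SE 0.64, edgeR adjusted p = 0.0174) and was called with any 1 library left out. It was the only one of the 7 for which that held. *Hist1h2ah* had 4.92, 1.95 and 10.8 against 22.4, 16.3 and 12.6 normalized counts and fell by 1.50 (SE 0.51, edgeR adjusted p = 0.0591). Its call was lost without wild-type replicate 1 or 2 or *Stag1*-/- replicate 1 or 2, with adjusted p of 0.195, 0.121, 0.174 and 0.191. Of its 150-base stretches 84.8% were shared with other genes, nearly all of H2A, so its count is uncertain. *Hist1h4a* had 2.95, 0.973 and 1.81 against 8.41, 8.13 and 3.87 normalized counts and fell by 1.77 (SE 0.66, edgeR adjusted p = 0.0891). *Hist1h2be* had 2.95, 1.95 and 0.904 against 13.1, 9.15 and 2.90 and fell by 2.07 (SE 0.78, edgeR adjusted p = 0.0915), and here the groups overlapped. DESeq2 did not call these last 2 genes, with adjusted p of 0.127 for *Hist1h4a* and 0.116 for *Hist1h2be*, and of the fits without a library only 1 called each of them, that without wild-type replicate 3. Without wild-type replicate 1 or 2 or *Stag1*-/- replicate 1, 2 or 3, the adjusted p was 0.218, 0.214, 0.113, 0.222 and 0.167 for *Hist1h4a* and 0.299, 0.19, 0.135, 0.175 and 0.217 for *Hist1h2be*. The annotated *Hist1h2be* transcripts, on chromosome 13 from 23583670 to 23621124, overlap the linker histone gene *Hist1h1e* in part on the same strand, so reads of these genes can be ambiguous.

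*Hist2h3c1*, an H3 gene on chromosome 3 from 96246685 to 96248509, fell in both knockouts and in *Stag2*-/- siStag1. Its raw counts were 21, 10 and 26 in wild-type siGLO, 16, 16 and 15 in wild-type siStag1, 2, 8 and 7 in *Stag1*-/- siGLO, 3, 1 and 3 in *Stag2*-/- siGLO, and 0, 0 and 3 in *Stag2*-/- siStag1. Every library of the knockout clones lay below every wild-type library, and those of *Stag2*-/- cells were at or near the floor of 3 counts. Scaled by library size, the summed counts of *Stag1*-/- siGLO were 0.292 times those of wild-type siGLO (exact 95% interval 0.159 to 0.510), those of *Stag2*-/- siGLO 0.134 times (0.0517 to 0.295) and those of *Stag2*-/- siStag1 0.0548 times (0.0110 to 0.168). These intervals cover counting error only. The fitted log2 fold changes were -1.75 (SE 0.57, adjusted p = 0.0511), -2.83 (SE 0.66, adjusted p = 0.00689) and -4.02 (SE 0.76, adjusted p = 0.000686) from edgeR. So near the floor, the size of the last 2 is uncertain. The last became -7.21 without replicate 3 of *Stag2*-/- siStag1, the only library of that condition with a count. The call in *Stag1*-/- was lost without wild-type replicate 1 or 3 or *Stag1*-/- replicate 1 (adjusted p of 0.119, 0.172 and 0.194), whereas the calls in *Stag2*-/- siGLO and siStag1 were made with any 1 library left out. The gene passed the expression filter through its wild-type level. Of its 150-base stretches 30.8% were shared with *Hist2h3b*, *Hist2h3c2* and *Gm20628*, of which the H3 genes *Hist2h3b* and *Hist2h3c2* were not tested, and another annotated transcript, *Gm20634*, overlaps it on the same strand.

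In *Stag2*-/- siGLO cells, *Hist1h4b* rose and *Hist2h3c1* fell, 2 of the 35 genes, where 28.3% of all genes were called (13.9% rose and 14.4% fell). *Hist1h4b*, an H4 gene on chromosome 13 from 23757013 to 23757409, had 27.5, 30.2 and 24.3 normalized counts there, whereas the wild-type siGLO libraries had 14.0, 9.15 and 3.87. It rose by 1.58 on the log2 scale (SE 0.49, edgeR adjusted p = 0.0325), and adjusted p = 0.13 without wild-type replicate 3. The groups did not overlap, but replicate 3 of wild-type siGLO was the lowest of all 15 libraries. An antisense transcript, *4930558J22Rik*, overlaps the gene, and since no strand setting is given, reads of both cannot be told apart. The median log2 fold change was 0.092 over the 35 histone genes, with 22 above 0, against 0.007 over all genes, of which 7370 of 14508 were above 0. By type it was -0.19 for 5 H1 genes, 0.092 for 7 H2A, 0.020 for 9 H2B, 0.70 for 8 H3 and 0.19 for 6 H4 genes. With replicate 1 of *Stag2*-/- siGLO left out, 4 histone genes were called, and 1 without wild-type replicate 3.

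**Figure D3:**
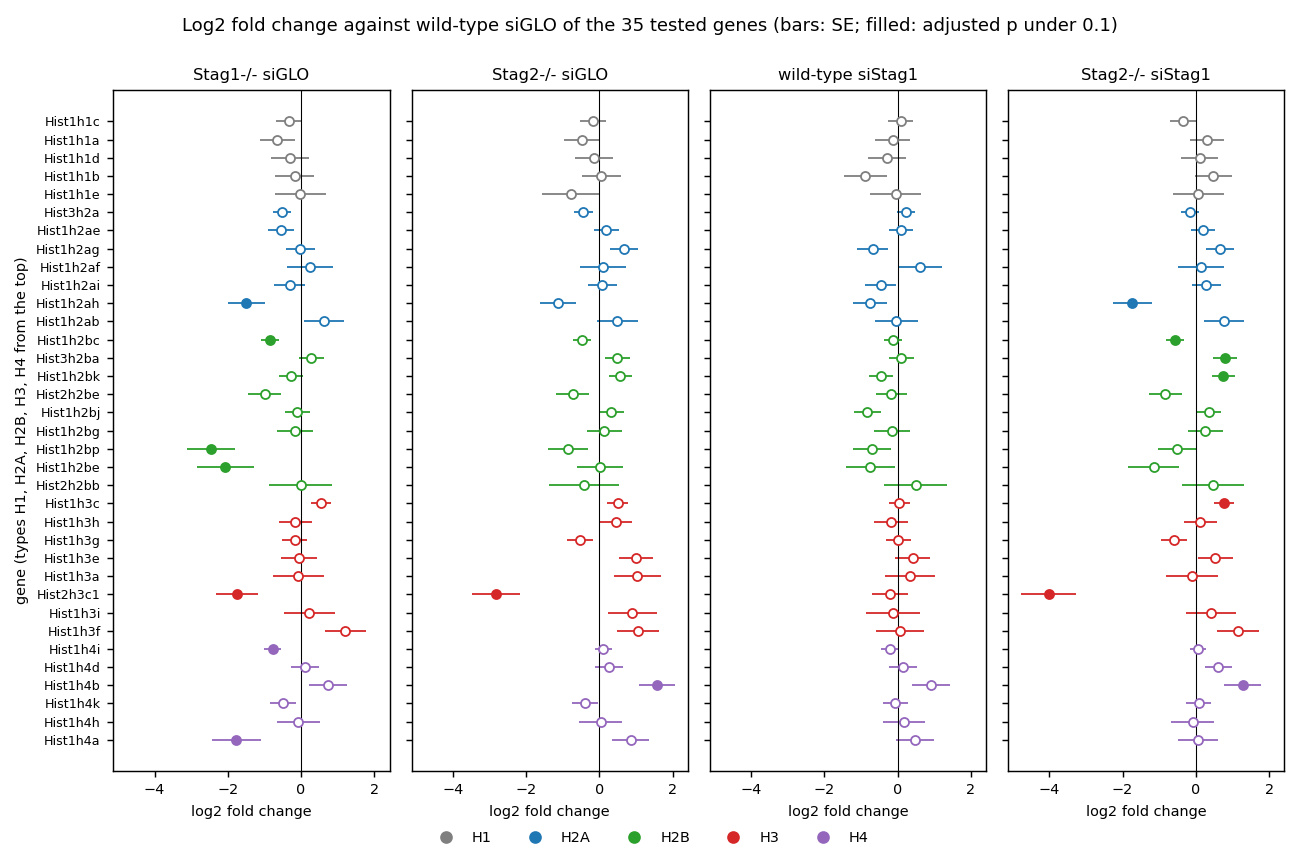
Log2 fold change against wild-type siGLO (x axis, with SE) of the 35 tested histone genes (y axis, ordered by type and level) in 4 conditions. Filled points passed an adjusted p under 0.1: 7 fell in *Stag1*-/- siGLO, 1 rose and 1 fell in *Stag2*-/- siGLO, none was called in wild-type siStag1, and 4 rose and 3 fell in *Stag2*-/- siStag1.

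Acute depletion of *Stag1* in wild-type cells gave no histone gene call. By edgeR 0 of 35 genes passed and by DESeq2 0, where edgeR called 0.248% of all genes (0.103% rose and 0.145% fell). An unadjusted edgeR p under 0.05 was reached by 1 of the 35 genes, against 922 of all 14508 genes. The most abundant genes overlapped between the groups: *Hist1h2bc* had 115, 174 and 140 normalized counts in wild-type siStag1 and *Hist1h4i* 88.6, 78.2 and 76.4, with log2 fold changes of -0.12 (SE 0.24) and -0.22 (SE 0.23). For these genes the *Stag1*-/- clone and the siRNA thus gave values side by side of -0.84 and -0.12, and of -0.78 and -0.22. These comparisons share their wild-type siGLO libraries, and the difference between them was not tested. The siRNA lowered *Stag1* itself from 2012 to 2288 normalized counts in wild-type siGLO to 353 to 517 in wild-type siStag1. In the *Stag1*-/- clone, whose deletion leaves a transcript, *Stag1* stood at 1826 to 2368, so its count does not check that label, while *Stag2* was 663 to 739 in *Stag2*-/- siGLO against 2329 to 2334.

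In *Stag2*-/- siStag1 cells, 4 histone genes rose and 3 fell relative to wild-type siGLO, 7 of 35, where 43.9% of all genes were called (22.6% rose and 21.3% fell). *Hist1h3c*, *Hist1h2bk*, *Hist3h2ba* and *Hist1h4b* rose, and *Hist1h2ah*, *Hist1h2bc* and *Hist2h3c1* fell. The median log2 fold change was 0.15 over the 35 genes, with 24 above 0, and -0.015 without replicate 1 of *Stag2*-/- siStag1. Over all genes it was 0.005, with 7319 of 14508 above 0. With 1 library left out, the count was lowest without wild-type replicate 2, at 2 genes, and 3 without *Stag2*-/- siStag1 replicate 2.

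*Hist1h3c*, the most abundant H3 gene, had 63.1, 82.2 and 56.6 normalized counts in *Stag2*-/- siStag1, against 40.2, 34.6 and 42.6 in wild-type siGLO. It rose by 0.78 on the log2 scale (SE 0.27, edgeR adjusted p = 0.0361), with no overlap between the groups, but adjusted p = 0.118 without wild-type replicate 2 and 0.147 without *Stag2*-/- siStag1 replicate 2. *Hist1h2bk*, an H2B gene, had 45.3, 59.3 and 37.4 against 31.8, 17.3 and 34.8 normalized counts and rose by 0.75 (SE 0.30, edgeR adjusted p = 0.0648). Its call was lost without the same 2 libraries (adjusted p of 0.253 and 0.237), and 60.9% of its 150-base stretches were shared with other H2B genes. *Hist3h2ba*, an H2B gene of the small cluster on chromosome 11, had 41.4, 47.8 and 59.7 against 29.9, 23.4 and 31.9 normalized counts and rose by 0.80 (SE 0.33, edgeR adjusted p = 0.069). It was not called without wild-type replicate 1 or 2 or *Stag2*-/- siStag1 replicate 2 or 3 (adjusted p of 0.111, 0.2, 0.112 and 0.205). *Hist1h4b* had 15.8, 36.4 and 14.2 normalized counts and rose by 1.27 (SE 0.50, edgeR adjusted p = 0.0569), but not without wild-type replicate 2 or 3 or *Stag2*-/- siStag1 replicate 2 (adjusted p of 0.121, 0.2 and 0.324).

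Of the genes that fell in *Stag2*-/- siStag1, *Hist1h2ah* had 3.94, 6.24 and 5.06 normalized counts and fell by 1.73 on the log2 scale (SE 0.52, edgeR adjusted p = 0.0168). All 3 libraries lay below those of wild-type siGLO, and the call was made with any 1 library left out. *Hist1h2bc* had 146, 74.9 and 92.0 normalized counts and fell by 0.58 (SE 0.25, edgeR adjusted p = 0.0763). Replicate 1 of *Stag2*-/- siStag1 overlapped wild-type siGLO, and the call was lost without wild-type replicate 1 or 2 or *Stag2*-/- siStag1 replicate 2 or 3 (adjusted p of 0.222, 0.113, 0.273 and 0.198).

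**Figure D4:**
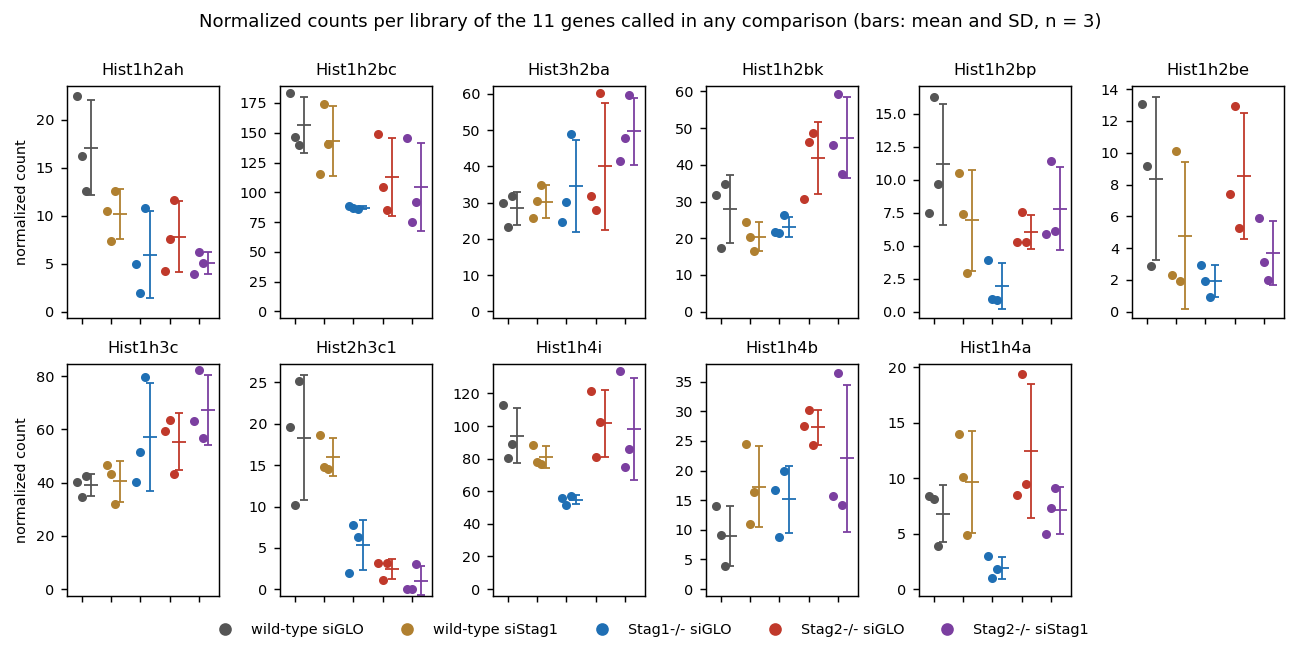
Normalized count (y axis, linear) in each library of the 11 histone genes called in any comparison, for the 5 conditions (x axis, coloured), with the mean and SD (n = 3) beside the points. *Hist2h3c1* is lower in every library of the knockout clones than in every wild-type library, and *Hist1h4i* is lowest in *Stag1*-/- siGLO.

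Compared directly, 4 of the 35 histone genes were lower in *Stag1*-/- siGLO than in *Stag2*-/- siGLO and none was higher, where 25.7% of all genes were called (12.9% lower and 12.7% higher). With the replicate number as a block, which pairs these libraries, 7 were lower, where 37.3% of all genes were called. *Hist1h4i* was 56.1, 51.6 and 57.0 normalized counts in *Stag1*-/- siGLO and 122, 80.8 and 102 in *Stag2*-/- siGLO, a log2 difference of -0.89 (SE 0.23, edgeR adjusted p = 0.0157). *Hist1h4a* was 2.95, 0.973 and 1.81 in *Stag1*-/- siGLO and 8.46, 19.4 and 9.50 in *Stag2*-/- siGLO, a log2 difference of -2.63 (SE 0.62, edgeR adjusted p = 0.00792). Both H4 genes were called with any 1 library left out. *Hist1h2bk* differed by -0.85 (SE 0.31, adjusted p = 0.0697) and *Hist1h2be* by -2.09 (SE 0.79, adjusted p = 0.0773) on the log2 scale. The call of *Hist1h2bk* was lost without *Stag1*-/- replicate 1 or 2 or *Stag2*-/- replicate 2 or 3 (adjusted p of 0.153, 0.176, 0.171 and 0.182), and that of *Hist1h2be* without any library but *Stag2*-/- replicate 3 (adjusted p from 0.102 to 0.244). The 3 genes that only the block added were *Hist1h2ae*, *Hist1h2bp* and *Hist1h3e*, with blocked adjusted p of 0.0927, 0.0972 and 0.0999, and 2 genes were called without *Stag1*-/- replicate 2 or without *Stag2*-/- replicate 2. The median log2 difference was -0.26 over the 35 genes, with 27 below 0, against -0.025 over all genes, of which 7700 of 14508 were below 0. Without the block, every one of the 6 tested H4 genes had a lower estimate in *Stag1*-/- cells, though *Hist1h4h* overlapped between the groups. It had 11.8, 6.81 and 9.04 normalized counts in *Stag1*-/- siGLO and 3.17, 21.6 and 5.28 in *Stag2*-/- siGLO.

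The siRNA against *Stag1* within *Stag2*-/- cells called no histone gene by edgeR or by DESeq2. By edgeR 6.37% of all genes were called (2.98% rose and 3.39% fell). An unadjusted edgeR p under 0.05 was reached by 0 of 35 histone genes, against 2423 of all 14508 genes. *Hist1h4i* had 134, 74.9 and 86.0 normalized counts in *Stag2*-/- siStag1 against 122, 80.8 and 102 in *Stag2*-/- siGLO, a log2 fold change of -0.05 (SE 0.23). The difference between the siRNA's effects in *Stag2*-/- and in wild-type cells was called for 0 of 35 by both tools. By edgeR 0.159% of all genes were called (0.0207% with a higher and 0.138% with a lower effect in *Stag2*-/- cells). At an unadjusted edgeR p under 0.05 there were 0 of 35 histone genes, against 842 of all 14508 genes. The difference between the siRNA's effects was 0.17 (SE 0.32) for *Hist1h4i* and 0.0087 (SE 0.35) for *Hist1h2bc* on the log2 scale. *Stag1* itself went from 1875 to 2204 normalized counts in *Stag2*-/- siGLO to 629 to 781 in *Stag2*-/- siStag1. More of it was thus left than in wild-type siStag1, with 353 to 517.

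The remaining abundant genes did not pass in any comparison without the replicate block. *Hist1h1c*, a linker histone gene of somatic cells, ranged from 46.5 to 67.3 normalized counts in wild-type siGLO, from 32.1 to 56.1 in *Stag1*-/- siGLO, from 52.4 to 75.8 in wild-type siStag1, from 34.5 to 71.9 in *Stag2*-/- siGLO and from 29.3 to 73.9 in *Stag2*-/- siStag1. *Hist1h1a*, the next H1 gene, had a mean of 13.5 normalized counts over the 15 libraries. *Hist3h2a*, the most abundant H2A gene, had 73.8, 40.9 and 85.9 normalized counts in *Stag1*-/- siGLO and 78.3, 72.2 and 62.3 in *Stag2*-/- siGLO. The wild-type siGLO libraries had 112, 91.5 and 84.2 normalized counts of it. The log2 fold changes of *Hist3h2a*, -0.52 (SE 0.25) and -0.44 (SE 0.25), had adjusted p of 0.188 and 0.233 from edgeR, and its annotation overlaps that of *Trim17* on the same strand. *Hist1h2ae* had log2 fold changes of -0.55 (SE 0.34) in *Stag1*-/- siGLO and 0.20 (SE 0.33) in *Stag2*-/- siStag1. *Hist1h3h* and *Hist1h4d*, the next H3 and H4 genes, had log2 fold changes of -0.16 (SE 0.45) and 0.11 (SE 0.38) in *Stag1*-/- siGLO and of 0.13 (SE 0.44) and 0.61 (SE 0.37) in *Stag2*-/- siStag1, and 90.5% of the 150-base stretches of *Hist1h3h* were shared with other H3 genes. The gene that the block added in *Stag1*-/- siGLO was the H2B gene *Hist2h2be*, with 17.7, 7.79 and 36.2 normalized counts against 32.7, 43.7 and 47.4 (blocked log2 fold change -1.02, blocked adjusted p = 0.0683).

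Genes of H2A and H2B often lie head to head and share a promoter region. There were 13 such pairs with start sites within 1000 bases, 1 of them with a pseudogene, and in 3 both genes were tested. In *Stag2*-/- siStag1, *Hist1h2ah* fell by 1.73 and its partner *Hist1h2bk* rose by 0.75 on the log2 scale. The other 2 pairs had no call in that comparison and estimates of the same sign. Their log2 fold changes were 0.20 for *Hist1h2ae* and 0.25 for *Hist1h2bg*, and 0.66 for *Hist1h2ag* and 0.36 for *Hist1h2bj*. In *Stag1*-/- siGLO the log2 fold changes of *Hist1h2ah* and *Hist1h2bk* were -1.50 and -0.28. For these 2 genes they were -1.12 and 0.58 in *Stag2*-/- siGLO, and -0.75 and -0.47 in wild-type siStag1. The stretch of 177 bases between their RefSeq start sites, chr13:22035644-22035820 (GRCm38.p6, plus strand, 5′ to 3′), is shown because both genes are read from it, with CCAAT on either strand, the letters bound by NF-Y, in capitals.
*Hist1h2ah* to *Hist1h2bk*: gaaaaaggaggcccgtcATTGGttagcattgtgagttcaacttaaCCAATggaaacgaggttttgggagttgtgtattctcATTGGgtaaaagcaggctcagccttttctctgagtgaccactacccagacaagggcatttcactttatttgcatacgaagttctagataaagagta
CCAAT on either strand was sought in the 250 bases upstream of the start. It was found for 51 of the 62 histone genes matched to the RefSeq table (82.3%), against 33.8% of all 32851 promoters there. TATAAA on either strand was found in 46.8%, against 12.4%. In the 250 bases upstream of *Hist2h3c1*, which fell in *Stag2*-/- cells, neither was found (chr3:96246435-96246684, GRCm38.p6, plus strand, 5′ to 3′).
*Hist2h3c1* upstream: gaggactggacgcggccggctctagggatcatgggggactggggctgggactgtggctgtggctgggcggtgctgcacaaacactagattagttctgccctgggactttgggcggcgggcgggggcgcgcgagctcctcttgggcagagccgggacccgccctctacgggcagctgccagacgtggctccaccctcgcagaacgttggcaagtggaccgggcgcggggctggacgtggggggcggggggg
These are matches of letters, which show neither binding nor its absence.

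Genes that make and end histone mRNA were called at or below the rate of all genes. Of 38 tested, 3 rose and 4 fell in *Stag1*-/- siGLO, 4 rose and 3 fell in *Stag2*-/- siGLO, none was called in wild-type siStag1, and 4 rose and 6 fell in *Stag2*-/- siStag1. These are shares of 18.4%, 18.4%, 0% and 26.3%, against 20.0%, 28.3%, 0.248% and 43.9% of all genes. *Slbp*, which encodes the stem-loop binding protein, fell by 0.21 on the log2 scale in *Stag1*-/- siGLO (SE 0.08, edgeR adjusted p = 0.0931). *Npat*, which encodes the coactivator of histone gene transcription, fell by 0.29 in *Stag1*-/- siGLO and by 0.27 in *Stag2*-/- siGLO (SE 0.11 each, edgeR adjusted p = 0.0849 and 0.0848). *Eri1*, encoding an exonuclease that trims the histone mRNA end, fell by 0.27, 0.34 and 0.46 in *Stag1*-/- siGLO, *Stag2*-/- siGLO and *Stag2*-/- siStag1 (SE 0.09 each). *Cdk9*, encoding an elongation kinase, rose by 0.25, 0.26 and 0.44 in the same conditions (SE 0.08 each). *Zfp473*, encoding a zinc finger protein of the U7 processing complex, rose by 0.36 in *Stag1*-/- siGLO and fell by 0.55 in *Stag2*-/- siStag1 (SE 0.13 each), and *E2f1*, encoding a factor of S-phase entry, fell by 0.65 in *Stag2*-/- siStag1 (SE 0.12). *Slbp* and *Npat* here, *Hist2h2be* and *Hist1h3e* above, and *H1f0* and *Rn45s* below were named after their values were seen.

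Of 60 S-phase genes tested, 3 rose and 12 fell in *Stag1*-/- siGLO, 4 rose and 2 fell in *Stag2*-/- siGLO, none was called in wild-type siStag1, and 5 rose and 17 fell in *Stag2*-/- siStag1. The shares called in *Stag1*-/- siGLO, *Stag2*-/- siGLO and *Stag2*-/- siStag1 were 25%, 10% and 36.7%, against 20.0%, 28.3% and 43.9% of all genes. The median log2 fold changes of these 60 genes were -0.12, 0.03, -0.03 and -0.10. *Orc1*, *E2f2* and *Cdc6*, genes of replication origin licensing and S-phase transcription, fell by 0.61, 0.83 and 0.40 in *Stag2*-/- siStag1 (SE 0.09, 0.14 and 0.07). The share of cells in S phase and the RNA per cell cannot be told apart in these bulk libraries, and their part in the histone values was not tested.

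Of 11 replacement histone genes tested, 1 fell in *Stag1*-/- siGLO, 3 rose in *Stag2*-/- siGLO and 3 rose in *Stag2*-/- siStag1, shares of 9.09%, 27.3% and 27.3%, against 20.0%, 28.3% and 43.9% of all genes. *H1f0*, the linker histone gene of slowly dividing cells, fell by 1.33 in *Stag1*-/- siGLO (SE 0.10, edgeR adjusted p = 3.35e-07), from 1177 to 1396 normalized counts in wild-type siGLO to 479 to 550. *H3f3a* and *H3f3b*, which both encode H3.3, rose by 0.30 and 0.32 in *Stag2*-/- siGLO and by 0.35 and 0.39 in *Stag2*-/- siStag1 (SE 0.11 and 0.12). *H2afy2*, encoding a macroH2A, rose by 0.49 and 0.82 in these conditions (SE 0.16 each). Of 35 histone chaperone genes, 2 rose in *Stag1*-/- siGLO, 8 rose and 2 fell in *Stag2*-/- siGLO, and 8 rose and 3 fell in *Stag2*-/- siStag1, shares of 5.71%, 28.6% and 31.4%, against the same shares of all genes. Among these, *Hat1*, encoding an H4 acetyltransferase, fell by 0.48, while *Anp32e*, *Nap1l1* and *Nap1l2*, encoding chaperones of H2A.Z or H2A and H2B, rose by 0.29, 0.34 and 0.94 in *Stag2*-/- siStag1.

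Other RNAs without a poly(A) tail were read as a gauge of carry-over. *Rn45s*, the ribosomal RNA precursor, had 99914 to 118776 normalized counts in wild-type siGLO, 83278 to 115609 in *Stag1*-/- siGLO, 97035 to 136450 in wild-type siStag1, 64496 to 91280 in *Stag2*-/- siGLO and 79903 to 109733 in *Stag2*-/- siStag1. It fell by 0.47 on the log2 scale in *Stag2*-/- siGLO (SE 0.16, edgeR adjusted p = 0.0481). The other 26 such RNAs listed together had 164 to 189 normalized counts per library in wild-type siGLO, 156 to 202 in *Stag1*-/- siGLO, 205 to 247 in wild-type siStag1, 202 to 306 in *Stag2*-/- siGLO and 187 to 228 in *Stag2*-/- siStag1. Of 10 such RNAs tested, 1 fell in each of *Stag1*-/- siGLO (*Terc*, the telomerase RNA, by 2.35, SE 0.63), *Stag2*-/- siGLO (*Rn45s*) and *Stag2*-/- siStag1 (*Snora74a*, by 1.08, SE 0.43), 10% each time, against 20.0%, 28.3% and 43.9% of all genes. The part of carry-over in the histone values was not tested.

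Markers of mESCs and of other cell types are given beside these values, and their shares called can be read against 20.0%, 28.3% and 43.9% of all genes in *Stag1*-/- siGLO, *Stag2*-/- siGLO and *Stag2*-/- siStag1. All 9 primitive endoderm markers fell in *Stag1*-/- siGLO, in *Stag2*-/- siGLO and in *Stag2*-/- siStag1, their sum going from 33203 to 34184 normalized counts in wild-type siGLO to 7570 to 9680, 6591 to 10176 and 7294 to 10302. None was called in wild-type siStag1, and none of the 9 was at or under 3 counts in every library. The 10 mESC markers were all expressed. Of these, 1 fell in *Stag1*-/- siGLO (10%), 4 in *Stag2*-/- siGLO (40%) and 7 in *Stag2*-/- siStag1 (70%). The 10 fibroblast markers summed to 3264 to 3805 normalized counts in wild-type siGLO, 2161 to 3268 in *Stag1*-/- siGLO, 2843 to 3171 in wild-type siStag1, 5029 to 6864 in *Stag2*-/- siGLO and 4860 to 6684 in *Stag2*-/- siStag1, with *Lum* at or under 3 counts in every library. Of 6 fibroblast markers tested, 1 rose and 1 fell in *Stag1*-/- siGLO, and 2 rose in each of *Stag2*-/- siGLO and *Stag2*-/- siStag1 (33.3% each). Of these 6, the estimates above 0 numbered 4, 5 and 3 in the same order, so single markers did not all follow the sum. Of 5 neural markers tested, 1 rose and 1 fell in *Stag1*-/- siGLO (40%), 3 rose in *Stag2*-/- siGLO (60%) and 2 rose in *Stag2*-/- siStag1 (40%). Of 5 mesoderm markers tested, none was called in *Stag1*-/- siGLO, and 3 rose and 1 fell in each of *Stag2*-/- siGLO and *Stag2*-/- siStag1 (80%). The 6 mesoderm markers listed summed to 233 to 332 normalized counts in wild-type siGLO and to 292, 1369 and 544 in *Stag2*-/- siGLO, where replicate 2 stood apart. The part of these cell types in the histone values was not tested.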

How the data were processed

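Reads of polyadenylated RNA (paired-end, 150 bp) were aligned by the authors with STAR (mm10), and the files they deposited hold raw gene counts. The counting tool, its annotation and its strand setting are not given in the sources used here. The 4 summary lines that name no gene held 19.8 to 23.4% of the reads of a library (multimapping reads 3.80 to 4.50%) and were left out. The quasi-likelihood test of edgeR 4.0.16 (R 4.3.3) was fitted to the 15 libraries together, after filterByExpr with conditions as groups (at least 10 counts, at least 15 in total) and TMM scaling, two-sided contrasts and Benjamini-Hochberg adjustment over 14508 genes at a threshold of 0.1. The SE is the size of the log2 fold change over the square root of F. The tests were checked on simulated data, with the changed genes drawn from all genes tested. This check was not made at the low depth of the histone genes alone.

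The genes, lists and tests were chosen with earlier results of these data known. Named are all histone genes called in any of the 7 comparisons, the 2 most abundant per type, and up to 4 per list, by adjusted p in *Stag2*-/- siStag1 against wild-type siGLO. Alternatives were DESeq2 1.42.0, RLE factors, library size alone, other filters, only the libraries compared, adjusted p under 0.05, a replicate block and each library left out. Same-numbered libraries correlated in their deviations from the condition means with a mean r of 0.267 over 30 pairs. The mean r of -0.131 over 60 other pairs largely follows from subtracting these means, so it is no separate comparison. Every same-numbered pair exceeded 0.1 for *Stag1*-/- against wild-type, for the knockouts against each other and for siStag1 within each genotype, but not for *Stag2*-/- siGLO or siStag1 against wild-type siGLO (lowest r 0.0838 and 0.0320). The pairing comes from the replicate numbers in the labels, and what a replicate number stands for is not stated. Stem-loops, exon lengths and shared stretches come from GENCODE M21 and promoters from RefSeq (GRCm38.p6), with 68 and 62 of 68 genes matched.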

Additional observations from a re-analysis of the deposited data

How the results depend on the processing

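No histone gene call changed direction under any alternative run. RLE factors and library size alone kept all 20 calls. DESeq2 kept 18 of 20, and the fit without an expression filter 16 of 20. The number of histone genes called in *Stag1*-/- siGLO against wild-type siGLO, 7, became 2 with at least 10 counts in every library, 4 with only the libraries compared and 3 at adjusted p under 0.05. In *Stag2*-/- siGLO, 2 became 0 with at least 10 counts in every library and 1 with only the libraries compared. In *Stag2*-/- siStag1 against wild-type siGLO, 7 became 4 with at least 10 counts and 3 at adjusted p under 0.05. Between the knockouts, 4 became 2 without an expression filter, 2 with at least 10 counts, 1 with only the libraries compared, 2 at adjusted p under 0.05 and 7 with the replicate block. The filter of at least 10 counts left 12 histone genes to test, and some genes were not tested with only the libraries compared, so part of these losses is fewer genes tested. With 1 library left out at a time, the counts ranged from 1 to 7 in *Stag1*-/- siGLO, from 1 to 4 in *Stag2*-/- siGLO, from 2 to 9 in *Stag2*-/- siStag1 and from 2 to 4 between the knockouts, and stayed at 0 in the other 3 comparisons. Of the 20 calls, 6 were made in every fit without a library. In the fits whose numbers do not pair the libraries, the replicate block gave 3 calls in *Stag2*-/- siGLO (8.57% of the histone genes, against 39.4% of all genes) and 9 in *Stag2*-/- siStag1 (25.7% against 53.7%), and it lost none of the 20 calls in any comparison. The median log2 fold change of the tested histone genes in wild-type siStag1 was -0.066 and became 0.077 without wild-type siStag1 replicate 2. The median level of the tested histone genes was 13.5 normalized counts, and this depth limits which changes could be seen.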

Other observations

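Among the genes tested within 100000 bases of *Hist2h3c1* on chromosome 3, *Mtmr11* also fell, while *Sf3b4* and *Sv2a* rose. These genes were chosen after their values were seen. *Otud7b* and *Bola1* were called in none of the 4 comparisons with wild-type siGLO. *Mtmr11* fell by 0.51 in *Stag2*-/- siGLO (SE 0.17, adjusted p = 0.047 from edgeR) and by 0.79 in *Stag2*-/- siStag1 (SE 0.18, adjusted p = 0.00225). *Sf3b4* rose by 0.36 in *Stag2*-/- siGLO (SE 0.15, adjusted p = 0.0897), and *Sv2a* rose by 0.69 in *Stag2*-/- siStag1 (SE 0.15, adjusted p = 0.00181). The other tested histone genes there, *Hist2h2be* and *Hist2h2bb*, were not called without the replicate block, with log2 fold changes of -0.73 (SE 0.45) and -0.43 (SE 0.96) in *Stag2*-/- siGLO, against -2.83 (SE 0.66) for *Hist2h3c1*. The blocked fit called *Hist2h2be* in *Stag1*-/- siGLO and in *Stag2*-/- siStag1 (edgeR adjusted p = 0.0683 and 0.0796).

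Annotated transcript ends and level were set side by side over the 68 histone genes, as a description. Genes with a transcript that continues past the stem-loop had a median of 7.49 normalized counts and 15 of 24 were tested. Genes whose transcripts end within 60 bases of it had a median of 5.15, and 9 of 22 were tested. Per kilobase of exon, the medians were 5.70 and 10.0 normalized counts for these 2 kinds in the same order, and their median exon lengths were 1194 and 484 bases.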
